A study of Mus musculus with 12 samples.

Results

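The glucocorticoid receptor and 9 genes that it is widely known to induce were followed in sorted monocytes of mice after liver resection, as a readout of the stress of surgery. The 10 genes were picked by symbol and not by a rule on their values, but with earlier results of these data known. They were Nr3c1, Fkbp5, Tsc22d3, Dusp1, Klf9, Sgk1, Zbtb16, Ddit4, Anxa1 and Sesn1, out of 52553 features in the count tables. All 10 passed the filter on low counts, which left 20135 features for testing.

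Glucocorticoids are steroid hormones of the adrenal cortex whose level rises under stress. In the absence of hormone the receptor is held in the cytoplasm by a complex of heat shock proteins and immunophilins. Bound by hormone it moves to the nucleus, where it raises the transcription of genes with glucocorticoid response elements and restrains that of many inflammatory genes, and in monocytes and macrophages it is known to favour an anti-inflammatory state.

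Male C57BL/6 mice were either intact, with spleen and liver in place, or were taken 24 h after resection of 70% of the liver with the spleen left in place. Mononuclear cells of the spleen and of the peripheral blood were sorted with magnetic beads against CD115, the receptor encoded by Csf1r. There were 3 RNA-seq libraries in each of 4 groups (intact spleen, spleen after resection, intact blood, blood after resection), 12 in all, each pooled from 5 mice. The resected mice had isoflurane and the analgesic meloxicam. The labels call the control mice intact, while the methods name sham-operated mice among the controls of the study, and whether the sequenced control mice had a sham operation, anaesthesia or analgesic is not given in the sources used here. How much of a difference belongs to the loss of liver tissue and how much to the operation and its drugs was therefore not tested.

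The libraries held from 36990033 to 46401368 estimated counts. Levels are given as CPM, counts scaled to 1000000 per library after TMM scaling. Csf1r itself was found in every library, at 209 to 1192 CPM, and 10 monocyte markers summed to 2241 to 14596 CPM. Markers of other leukocytes were present too, with 592 to 5937 CPM of summed B cell markers, while 7 hepatocyte markers summed to at most 1.86 CPM. Haemoglobin transcripts took 13.2 to 34.2% of gene counts in blood and 0.0814 to 3.47% in spleen. The summed neutrophil markers were highest in library 3 of the resected spleen (15130.1 CPM, against 5596 and 5832 CPM in the other libraries of that group) and of the resected blood (19936 CPM against 3842 and 4824 CPM). In intact blood the libraries 1 and 2 had 948 and 871 CPM of summed T cell markers and 87.2 and 66.8 CPM of proliferation markers, while library 3 had 2554 and 1588 CPM. In bulk RNA fewer cells of a type and less RNA per cell cannot be told apart. Nothing states that the pools were separate batches of surgery or sorting, so the p-values measure the spread between these libraries.

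A difference was called where the Benjamini-Hochberg adjusted p of edgeR's quasi-likelihood test, taken over all 20135 features, was under 0.05 and the log2 fold change was above 1 in absolute value. In blood 3 of the 10 genes were called after resection, Sgk1 and Anxa1 higher and Tsc22d3 lower, where 13.9% of all features were called (7.8% higher and 6.11% lower). In spleen Anxa1 alone was called, higher, where 1.38% of all features were called (0.78% higher and 0.596% lower). The median log2 fold change of the 10 genes was 0.55 in blood and 0.14 in spleen, against -0.10 and 0.05 over all features tested. Of the 10 genes 6 had a positive and 4 a negative fold change in each tissue. Between the tissues Dusp1 alone was called in intact mice, lower in blood, where 7.35% of all features were called (3.49% lower). After resection Sgk1 was called higher and Tsc22d3 and Dusp1 lower in blood than in spleen, where 13.2% of all features were called (6.28% higher and 6.87% lower).

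**Figure D1:**
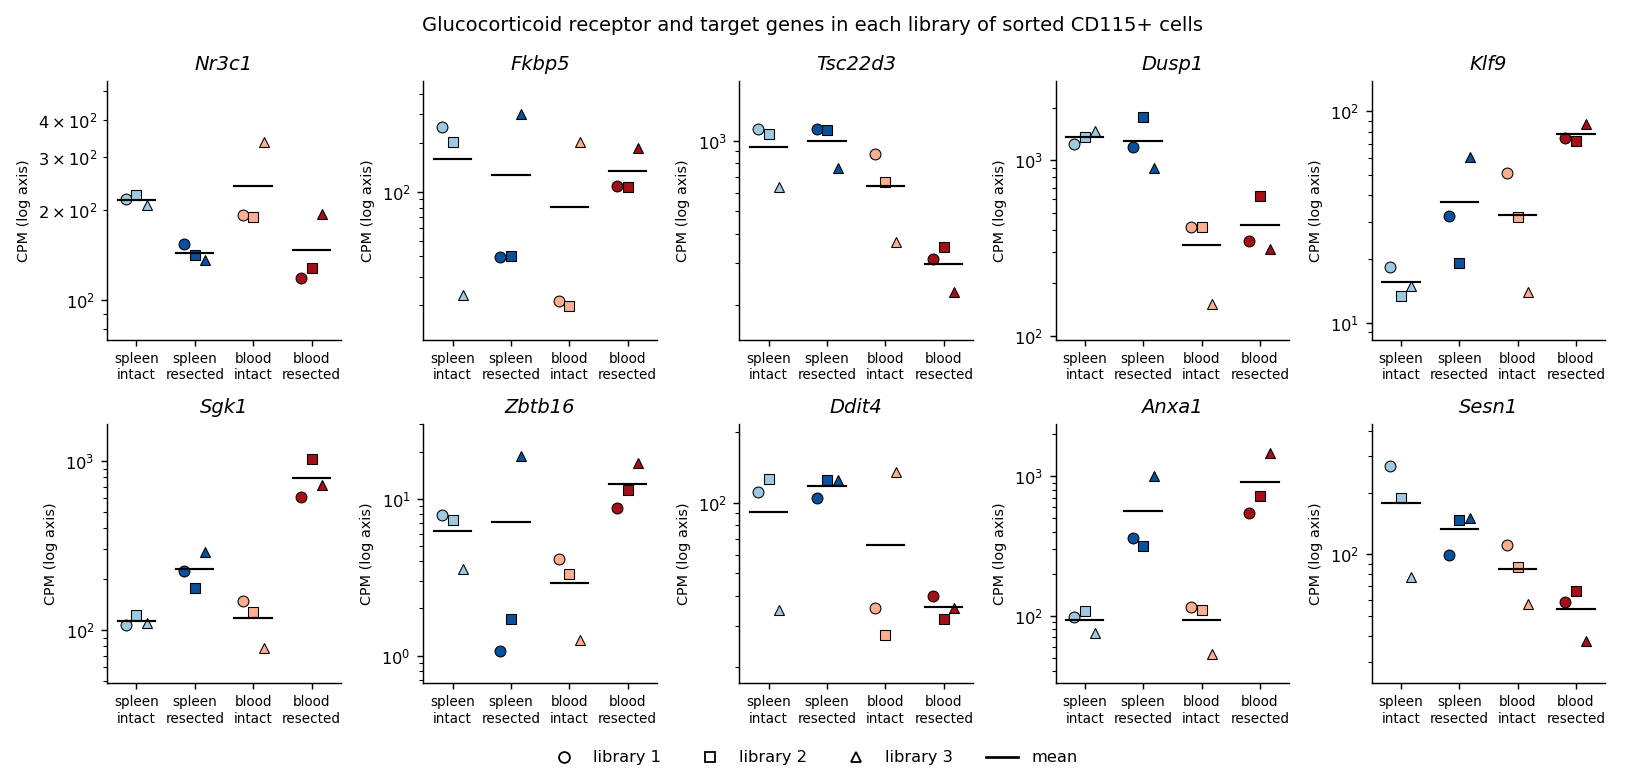
Level of each of the 10 genes in CPM (log axis, a separate range for each gene) in the 3 libraries of each group. Symbols are libraries, bars the means. The libraries of resected blood lay above all those of intact blood for Sgk1, Anxa1, Klf9 and Zbtb16 and below them for Tsc22d3, while the Fkbp5 libraries of 3 of the groups spread over a range of 7.58 to 10.9 times.

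Sgk1 encodes a serum- and glucocorticoid-inducible kinase that regulates ion channels and transporters and cell survival. Its level was 149, 128 and 77.9 CPM in libraries 1, 2 and 3 of intact blood and 614, 1030.3 and 719 CPM after resection. In spleen it was 107, 122 and 110.2 CPM in intact mice and 224, 177 and 289.8 CPM after resection. The resected libraries lay above the intact ones in both tissues with no overlap, and the blood libraries after resection stood above all others. The log2 fold change was 2.74 ± 0.30 (SE) in blood, a 6.66-fold difference (adjusted p = 0.000707), and the call held under all 22 alternative settings, between 2.49 and 2.97. In spleen it was 1.03 ± 0.28 with an unadjusted p of 0.00422 and an adjusted p of 0.0842, short of a call, although DESeq2 called it (1.01, adjusted p = 0.0106), as did edgeR without library 3 of intact blood (1.03, adjusted p = 0.0315). Ordered by level, intact spleen and intact blood came first and did not differ beyond their spread (0.06, 95% interval -0.55 to 0.68), then the resected spleen, then the resected blood, which exceeded the resected spleen by 1.77 ± 0.29 (adjusted p = 0.00333). Summed neutrophil markers rose in the same blood libraries (142 to 524 CPM in intact and 3842 to 19936 CPM in resected blood). So did those of peritoneal macrophages (315 to 1015 CPM and 8651 to 12823 CPM) and of monocytes (3600 to 9230 CPM and 12638 to 14596 CPM). In resected spleen the sums, in the same order, were 5596 to 15130, 36.1 to 867 and 2241 to 3929 CPM. What part such cells have in the level of Sgk1 was not tested.

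Anxa1 encodes annexin A1, a protein induced by glucocorticoids that acts on formyl peptide receptors and restrains leukocyte recruitment, and that neutrophils hold in large amounts. It was at 116, 111 and 52.99 CPM in intact blood and at 542, 729 and 1479 CPM in blood after resection. In spleen the intact libraries had 97.6, 108 and 75.8 CPM and the resected ones 361, 317 and 1005 CPM. Here too the resected libraries exceeded the intact ones in both tissues without overlap, and library 3 was the highest of the resected libraries in each. The log2 fold change was 3.30 ± 0.56 in blood (9.86-fold, adjusted p = 0.00395) and 2.58 ± 0.54 in spleen (5.98-fold, adjusted p = 0.0467). Blood and spleen did not differ beyond their spread in intact mice (-0.01, 95% interval -1.15 to 1.13) or after resection (0.71, -0.44 to 1.85).

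In blood the call of Anxa1 held under all 22 alternatives. In spleen it was lost under 15 of 22, with adjusted p-values from 4.89e-05 to 0.207, although the fold change stayed between 1.85 and 2.86. Of the fits with 1 library left out, only those without library 3 of intact blood or of resected blood kept it. Neutrophil markers were higher after resection too. Resection raised all 10 neutrophil markers past the threshold in blood and 2 of 10 in spleen, with median log2 fold changes of 4.54 and 2.11. Their summed level was 142 to 524 CPM in intact blood and 3842 to 19936 CPM after resection, and 1331 to 2420 CPM in intact spleen and 5596 to 15130.1 CPM after resection. Between the intact tissues 6 of the 10 were called lower in blood than in spleen (median -2.59), with mean sums of 351 and 1962 CPM. Anxa1 averaged 93.0 and 93.8 CPM there. Without library 3 of both resected groups, Anxa1 stood at 2.79 in blood (adjusted p = 0.00415) and at 1.85 in spleen (adjusted p = 0.088), and the spleen call was lost. In spleen, library 3 of the resected group also had 867 CPM of summed peritoneal macrophage markers, against 36.1 and 52.1 CPM in the other libraries of its group. Those markers rose in blood as well (315 to 1015 CPM in intact and 8651 to 12823 CPM in resected blood, 6 of 8 called higher). What part these other cells have in the level of Anxa1 was not tested.

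**Figure D2:**
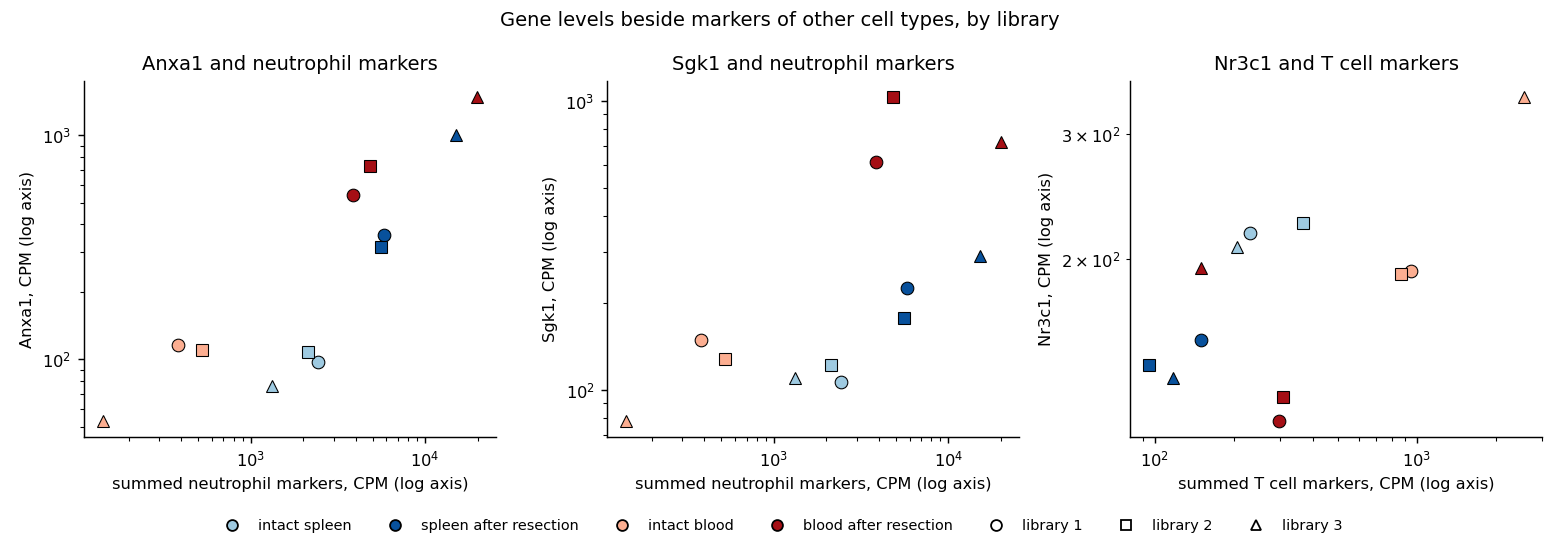
Level of Anxa1 and Sgk1 against the summed CPM of 10 neutrophil markers, and of Nr3c1 against the summed CPM of 8 T cell markers, in the 12 libraries (both axes logarithmic). Colours are groups and symbols are library numbers. The libraries with the most neutrophil markers, library 3 of resected blood and of resected spleen, were the highest of the 12 for Anxa1. For Sgk1 the resected blood libraries were the highest, and library 3 of resected spleen was the highest of its own group. Library 3 of intact blood had both the most T cell markers and the most Nr3c1.

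The sequence before the start site was read for Sgk1, Anxa1 and Tsc22d3, the genes called after resection, to show whether the classical binding sequence of the receptor is present there. RefSeq promoter windows (assembly GRCm38.p6, 250 bases before to 50 after a start site) were used for 8 of the 10 genes, 16 windows in all. No entry was used for Nr3c1 and Zbtb16. The palindromic element, AGAACA and TGTTCT with 3 bases of any kind between them, was searched on both strands. It was in 3 of 32851 windows (0.00913%), and 1 of these was among the 6 windows of Sgk1. There it lay 189 to 175 bases before the start. Which start site the cells used was not tested. The single hexamer AGAACA, which the full element contains, was in 19.0% of all windows and in 4 of the 16, belonging to Sgk1 and to Tsc22d3. The Sgk1 window (chr10:21993640-21993889, + strand), the Tsc22d3 window with a hexamer (chrX:140600523-140600772, - strand) and the only Anxa1 window (chr19:20390672-20390921, - strand) are printed 5′ to 3′ up to the start site, with the full element of Sgk1 and the hexamer of Tsc22d3, read on the other strand, in capitals. Anxa1 had no match to either, which says only that these letters are not in the window.
Sgk1: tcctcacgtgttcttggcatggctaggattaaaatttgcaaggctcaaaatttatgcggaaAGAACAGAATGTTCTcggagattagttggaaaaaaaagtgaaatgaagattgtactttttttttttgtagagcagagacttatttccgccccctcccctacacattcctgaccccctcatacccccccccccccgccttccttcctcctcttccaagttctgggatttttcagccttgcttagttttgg
Tsc22d3: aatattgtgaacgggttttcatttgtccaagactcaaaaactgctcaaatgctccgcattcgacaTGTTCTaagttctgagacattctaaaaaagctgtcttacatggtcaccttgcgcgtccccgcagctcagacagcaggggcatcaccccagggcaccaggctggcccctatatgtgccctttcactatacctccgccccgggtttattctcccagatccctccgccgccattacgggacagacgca
Anxa1: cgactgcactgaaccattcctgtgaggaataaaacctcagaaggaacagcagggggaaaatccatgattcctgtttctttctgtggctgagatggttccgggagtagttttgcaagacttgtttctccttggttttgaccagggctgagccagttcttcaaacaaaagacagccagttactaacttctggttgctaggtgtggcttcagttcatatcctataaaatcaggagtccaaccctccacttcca

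A match of letters is a description of the window and not a bound site. Sgk1, with the full element in 1 of its 6 windows, was 6.66-fold higher in blood after resection. Anxa1, without the element in its only window, was 9.86-fold higher. Tsc22d3, with the hexamer in 1 of its 3 windows, was 2.15-fold lower. Among other motifs the cAMP response element TGACGTCA was found in the window of Dusp1 (1.79% of all windows), the AP-1 site TGANTCA in that of Klf9 (7.81%) and the E-box CACGTG in windows of Sgk1, Dusp1 and Fkbp5 (7.15%), and the NF-kB site GGGANTTCC was in none of the 16 (1.68%).

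Tsc22d3 encodes GILZ, a leucine zipper protein whose gene is among the most widely used readouts of glucocorticoid action in leukocytes. In blood it fell. Its level was 877, 668 and 372 CPM in intact mice and 312, 353 and 228 CPM after resection, with no overlap. The log2 fold change was -1.10 ± 0.34 (2.15-fold lower, adjusted p = 0.0447). In spleen the intact libraries held 1118, 1068 and 632 CPM and the resected ones 1121, 1111 and 761 CPM, and these ranges overlapped (0.09, 95% interval -0.66 to 0.84). Blood was below spleen after resection by -1.75 ± 0.35 (adjusted p = 0.0083, 0.0566 without library 3 of resected blood and from 6.41e-05 to 0.0566 over all alternatives), with every blood library below every spleen library, and not distinguishably so in intact mice (-0.56 ± 0.34, adjusted p = 0.341).

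The call of Tsc22d3 in blood lay close to the threshold. It was lost under 15 of 22 alternatives, with adjusted p-values from 0.00916 to 0.176, and in 10 of the 12 fits with 1 library left out, all but those without library 3 of intact spleen or of intact blood, while the fold change stayed negative, from -1.38 to -0.77. Its counts came from 3 entries of the tables, the gene symbol, a non-coding and a predicted transcript, of which the latter 2 held 23.8% of the counts. The entry under the symbol alone fell from 698, 503 and 287 CPM to 248, 275 and 193 CPM, with no overlap either, and the test on the entries as deposited gave -1.05 (adjusted p = 0.0707). In the same blood libraries 7 of 8 T cell markers were called lower after resection, with a summed level of 871 to 2554 CPM in intact and 149.6 to 308 CPM in resected blood. Library 3 of intact blood, with the most T cell markers, had the lowest Tsc22d3 of its group. What part T cells have in the fall of Tsc22d3 was not tested.

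Nr3c1, the receptor gene, was lower after resection in both tissues without reaching a call. It was at 217, 225 and 208 CPM in intact spleen and 154, 142 and 136 CPM in resected spleen, and at 192, 190.2 and 337 CPM in intact blood and 118, 128 and 194 CPM after resection. The spleen libraries did not overlap, and in blood only library 3 of the resected mice reached into the intact range. The log2 fold change was -0.59 ± 0.25 in spleen (unadjusted p = 0.0382, adjusted p = 0.21) and -0.71 ± 0.25 in blood (unadjusted p = 0.0171, adjusted p = 0.0686). The intact tissues did not differ beyond their spread (0.15, 95% interval -0.40 to 0.70), and neither did the resected ones (0.03, 95% interval -0.52 to 0.58). Library 3 of intact blood was the highest for Nr3c1 as well as for T cell and proliferation markers. Without it the fold change in blood was -0.39, the smallest of the fits with 1 library left out, and without library 3 of both resected groups it was -0.92 (adjusted p = 0.0355), which is under the fold limit of a call.

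Among all features 6.11% were called lower and 7.8% higher in blood. Of 20 other genes of the receptor's machinery, the chaperones, coregulators, the related receptor Nr3c2 and the enzymes that convert the steroid, 3 were called lower in blood and none higher, where the median was -0.70 against -0.10 over all features. These were Stip1, a co-chaperone that links Hsp70 and Hsp90, Fkbp4, the immunophilin FKBP52 of the receptor complex, and Hsp90aa1, the inducible Hsp90. Stip1 fell from 181 to 316 CPM in intact blood to 67.2 to 98.2 CPM after resection (-1.53 ± 0.31, adjusted p = 0.00794), Fkbp4 by -1.35 ± 0.30 and Hsp90aa1 by -1.32 ± 0.39. Bag1, a co-chaperone of Hsp70, had the smallest p-value of the positive changes in both tissues (0.46 ± 0.15 in blood and 0.43 ± 0.15 in spleen) and was not called. With no fold limit 9 of the 20 were lower, where 10.3% of all features were, among them Med1, a subunit of the Mediator complex, at -0.70 ± 0.15 (adjusted p = 0.0104). Library 3 of intact blood was the highest for Stip1, Fkbp4 and Hsp90aa1. In spleen 0 of the 20 were called, where 1.38% of all features were. At an unadjusted p under 0.05 there were 1 higher and 3 lower, with the share of all features at that limit not given here. DESeq2 also called 0. Hsd11b1, whose enzyme regenerates active glucocorticoid, was at 4.98 to 13.0 CPM in intact blood and 18.03 to 53.6 CPM after resection (1.69 ± 0.57, adjusted p = 0.0592), and the inactivating enzyme gene Hsd11b2 had at most 3 counts in every blood library.

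Fkbp5, an immunophilin that lowers the affinity of the receptor for its hormone and is induced by it in a feedback loop, was not distinguishable between any of the groups at this spread. The libraries had 21.3, 19.6 and 202 CPM in intact blood and 108, 108 and 187 CPM after resection, and 251, 203 and 23.0 CPM in intact spleen and 39.8, 40.0 and 302 CPM after resection. In every group libraries 1 and 2 lay close together and library 3 apart, above them in 3 groups and below them in intact spleen. The within-group SD of Fkbp5 was 1.59 on the log2 scale, larger than that of 98.1% of 14934 tested features with a mean of at least 1 CPM. The log2 fold change was 0.73 in blood (95% interval -1.81 to 3.26) and -0.32 in spleen (-2.84 to 2.20). Blood against spleen gave -0.97 (-3.51 to 1.58) in intact mice and 0.08 (-2.44 to 2.60) after resection. Without library 3 of intact blood it was 2.71 in blood (adjusted p = 0.133, adjusted p from 0.133 to 0.885 over all alternatives), and without library 3 of the resected spleen it was -1.99 in spleen.

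Klf9 and Zbtb16 encode transcription factors that respond to glucocorticoids in many cell types, the zinc finger protein KLF9 and the lymphoid and myeloid regulator PLZF. Klf9 was at 50.9, 31.6 and 14.002 CPM in intact blood and at 75.0, 72.4 and 87.0 CPM after resection, and in spleen at 18.4, 13.3 and 14.9 CPM in intact mice and 31.9, 19.2 and 60.7 CPM after resection. The resected libraries lay above the intact ones in both tissues, by 1.28 ± 0.47 in blood (adjusted p = 0.0801) and 1.26 ± 0.47 in spleen (adjusted p = 0.169), and neither was a call. DESeq2 called Klf9 in blood (1.29, adjusted p = 0.0323), as did edgeR without library 1 of intact blood (1.80), and the adjusted p ran from 0.0323 to 0.193 over all alternatives. Blood exceeded spleen by 1.05 ± 0.47 in intact mice (adjusted p = 0.198), with overlap, and by 1.07 ± 0.47 after resection (adjusted p = 0.14), without overlap, and the latter was called in the fits without library 3 of resected spleen (1.71) or of intact blood (1.17).

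Zbtb16 was scarce in all groups. In blood it was at 4.13, 3.34 and 1.27 CPM in intact mice and 8.79, 11.4 and 17.0 CPM after resection, which did not overlap (2.09 ± 0.96, adjusted p = 0.147), and was called in the fit without library 3 of resected spleen (2.09, adjusted p = 0.0208). The spleen libraries had 7.91, 7.31 and 3.60 CPM in intact mice and 1.07, 1.70 and 18.8 CPM after resection, so library 3 of the resected group stood above and its other libraries below every intact one. The fold change there was 0.19 ± 0.92, and -2.17 without that library. Blood against spleen gave -1.11 ± 0.93 in intact mice (adjusted p = 0.508) and 0.79 ± 0.93 after resection (adjusted p = 0.596). The latter was called without library 3 of resected spleen (3.25, adjusted p = 0.00942) and without library 3 of both resected groups (2.96, adjusted p = 0.029).

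Dusp1 encodes the phosphatase MKP-1, which shuts off p38 and JNK signalling and carries part of the anti-inflammatory effect of glucocorticoids. It differed between tissues and not detectably with resection. In spleen it was at 1235, 1354 and 1473 CPM in intact mice and 1196, 1770.4 and 903 CPM after resection, and in blood at 420.1, 419.5 and 153 CPM in intact mice and 348, 628 and 314 CPM after resection. All blood libraries were below all spleen libraries. The difference of blood from spleen was -2.03 ± 0.43 in intact mice (4.09-fold lower, adjusted p = 0.0191) and -1.58 ± 0.42 after resection (adjusted p = 0.0275), and resection itself gave 0.38 (95% interval -0.54 to 1.29) in blood and -0.07 (-0.98 to 0.84) in spleen. The tissue call was lost under 5 of 22 alternatives in intact mice, among them the fits without any 1 library of intact spleen or without library 1 of intact blood, and under 11 of 22 after resection, among them 9 of the 12 fits with 1 library left out (all but those without library 3 of resected spleen, library 2 of resected blood or library 3 of intact blood). The direction did not change in any of them.

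Dusp1 is also an immediate-early gene, and the splenic cells were released with collagenase while blood cells were not. Of 12 other immediate-early genes, 5 were called lower in intact blood than in intact spleen (Egr1, Egr2, Fos, Fosb and Jun), and after resection 5 were lower (Btg2, Fos, Fosb, Jun and Nr4a1) and Ier3 was higher. Over all features 3.49% were called lower in blood in intact mice. After resection 6.87% were called lower and 6.28% higher in blood than in spleen. Fos, for example, was at 109 to 415 CPM in intact blood and 1709.7 to 3274 CPM in intact spleen (-3.02 ± 0.54). Tissue and handling of the cells cannot be told apart. With resection 3 of the 12 were called higher in blood (Egr1, Egr2 and Ier3) and Ier3 alone in spleen (adjusted p = 0.0484 by edgeR). The shares of all features called higher were 7.8% and 0.78%. Without library 3 of both resected groups the counts were 3 in blood and 0 in spleen. With 1 library left out the splenic count was 0 to 1.

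Ddit4 and Sesn1 encode REDD1 and sestrin 1, inhibitors of mTORC1 signalling that glucocorticoids, but also hypoxia, amino acid shortage and p53, can raise. Ddit4 was at 35.5, 27.4 and 135 CPM in intact blood and 40.1, 31.96 and 35.5 CPM after resection, and at 112, 127 and 34.9 CPM in intact spleen and 105, 125 and 125 CPM after resection. The groups overlapped in both tissues, library 3 standing apart in both intact groups, and the fold change was -0.88 ± 0.59 in blood and 0.38 ± 0.59 in spleen. Without library 3 of intact blood, the one with the most T cell markers, that in blood was 0.18. In intact mice blood differed from spleen by -0.47 ± 0.59. After resection the blood libraries were all below the splenic ones (-1.72 ± 0.60, adjusted p = 0.0736).

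Sesn1 was at 112, 86.9 and 57.3 CPM in intact blood and 58.8, 66.5 and 37.8 CPM after resection. In spleen it was at 269, 188 and 77.3 CPM in intact mice and 99.5, 147 and 149.5 CPM after resection. The groups overlapped in both tissues (-0.65 ± 0.42 and -0.43 ± 0.42). In blood it was below spleen by -1.06 ± 0.42 in intact mice (adjusted p = 0.149) and by -1.28 ± 0.43 after resection (adjusted p = 0.0618), without overlap in the latter. After resection Ddit4 was called lower in blood than in spleen under 3 of 22 alternatives (DESeq2, only the 2 groups compared and without library 3 of intact blood, -1.66 to -1.61) and Sesn1 under 5 (DESeq2, at least 10 counts in every library, the replicate block, only the 2 groups compared and without library 3 of intact spleen, -1.39 to -1.17).

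**Figure D3:**
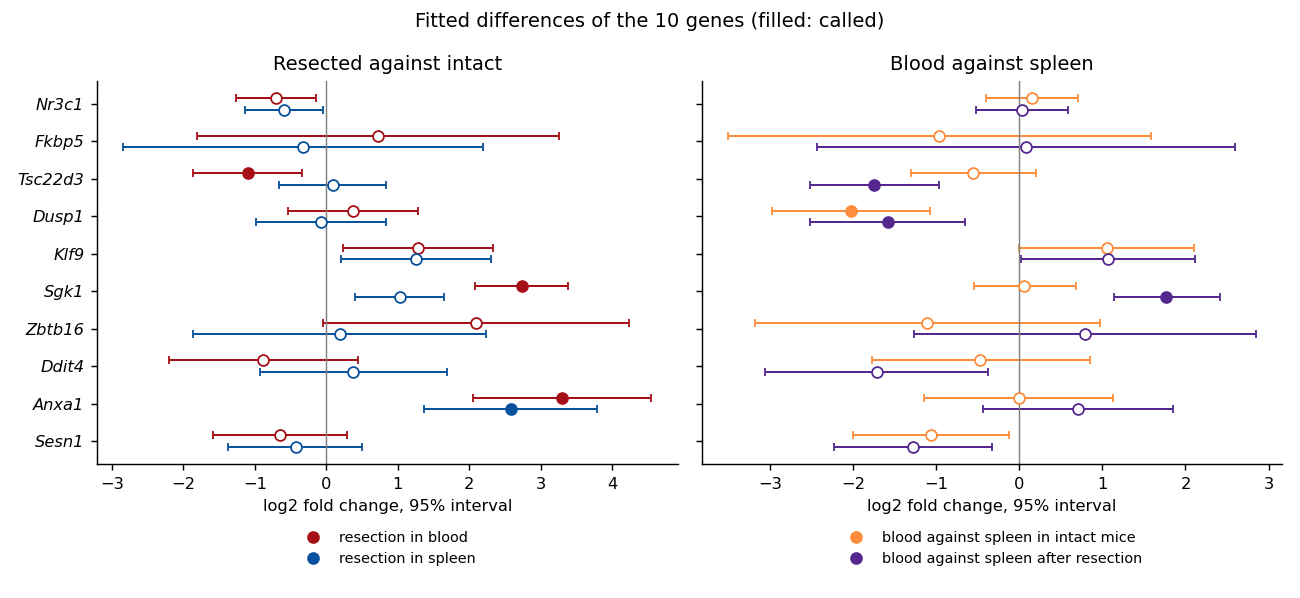
Log2 fold change of the 10 genes with its 95% interval, for resection in each tissue (left) and for blood against spleen in intact and in resected mice (right). Filled circles were called. After resection Sgk1 in blood and Anxa1 in both tissues stood highest, Tsc22d3 in blood was the only one called lower, and Fkbp5 and Zbtb16 had the widest intervals.

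Whether resection acted differently in the tissues was tested as the difference of the effects. None of the 10 genes was called by edgeR, where 0.283% of all features were called. At an unadjusted p under 0.05 there were 2, and the share of all features at that limit is not given here. For Sgk1 the rise in blood exceeded that in spleen by 1.71 ± 0.40 on the log2 scale (unadjusted p = 0.00144, adjusted p = 0.106), and DESeq2 called it (1.74, adjusted p = 0.00204). For Tsc22d3 the difference was -1.19 ± 0.48 (unadjusted p = 0.032, adjusted p = 0.248). The effects on Klf9 differed by 0.02 (95% interval -1.45 to 1.49), those on Nr3c1 by -0.12 (-0.90 to 0.66) and those on Anxa1 by 0.72 (-0.89 to 2.33). The remaining differences were 1.05 for Fkbp5 (-2.53 to 4.62), 0.45 for Dusp1 (-0.84 to 1.74), 1.90 for Zbtb16 (-1.03 to 4.82), -1.26 for Ddit4 (-3.12 to 0.60) and -0.22 for Sesn1 (-1.54 to 1.11). In libraries, 5 of the 10 genes did not overlap between intact and resected blood, 4 higher and 1 lower, and 38.4% of all features did not overlap (19.4% higher and 19.0% lower). In spleen it was 4 of 10, 3 higher and 1 lower, and 35.1% of all features (17.4% higher and 17.7% lower). Sgk1, Anxa1 and Klf9 were among the higher ones in both tissues, and the share of all features that were so in both was not counted.

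The other genes of the hormone's response were taken from fixed lists. Of 21 more genes widely known to be induced by glucocorticoids, 6 were called higher in blood and none lower (median 0.99). Among all features 7.8% were called higher there. Nfkbia, the inhibitor of NF-kB, rose from 253 to 339.9 CPM in intact blood to 1516 to 2532 CPM after resection (2.74 ± 0.33, adjusted p = 0.00112). The metallothioneins Mt1 and Mt2, which bind zinc and copper, rose by 4.09 ± 0.53 and 5.42 ± 0.74. The others were Lcn2, the neutrophil granule protein lipocalin 2 (7.37 ± 1.09), Zfp36, the mRNA-destabilising protein TTP (1.82 ± 0.46), and Cebpb (1.75 ± 0.46). Lcn2 was at 3152 CPM in library 3 of resected blood, the one with the most neutrophil markers, and at 331 and 516 CPM in the others. Pik3r1, Txnip and Irs2 had the smallest p-values among negative changes (-0.56, -0.77 and -0.51) and were not called.

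In spleen 4 of these 21 were called higher and none lower (median 0.89), where 0.78% of all features were called higher. They were Nfkbia (2.00 ± 0.32, adjusted p = 0.0253), Mt1 (2.62 ± 0.49), Mt2 (3.36 ± 0.67) and the clock gene Per1, an established direct target of the receptor. Per1 was at 142 to 194 CPM in intact spleen and 502 to 1026 CPM after resection (2.01 ± 0.34, adjusted p = 0.0262). In blood it was at 255 to 496 CPM and 279 to 362 CPM, and these ranges overlapped (-0.14 ± 0.33). Il7r and Bcl6 were among the negative changes in spleen (-1.36 ± 0.77 and -0.43 ± 0.36) and were not called. All 4 splenic calls were lost without library 3 of both resected groups (0 of 21).

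Of 13 genes that glucocorticoids are known to raise in monocytes or macrophages, 11 were called higher in blood and none lower, with a median of 3.67. The share of all features called higher was 7.8%. The smallest p-values were those of Mertk, a receptor for the uptake of dying cells (3.45 ± 0.28), the haemoglobin scavenger receptor Cd163 (3.67 ± 0.46) and Il10 (5.78 ± 0.79). Cd163 was at 17.9 to 21.2 CPM in intact blood and 220.4 to 274 CPM after resection, and Mertk at 5.40 to 9.17 CPM and 71.6 to 94.7 CPM. The rest were Fpr1 and Fpr2, the formyl peptide receptors through which annexin A1 acts, the decoy receptor gene Il1r2, Il1rn, Msr1, Vsig4, Stab1 and Thbs1, while Cxcr4 had -0.29 ± 0.28 and was not called. The count in blood was 11 as well without library 3 of both resected groups. In spleen 0 of 13 were called by edgeR, where 1.38% of all features were called. The median was 1.93 against 0.05 over all features, and 8 were higher at an unadjusted p under 0.05. The count of calls rose to as many as 6 under other settings. The shares of all features under those settings and at the unadjusted limit are not given here, so these counts have no background to be read against. Cd163 came closest, at 23.2 to 75.9 CPM in intact spleen and 105 to 269 CPM after resection (1.93 ± 0.43, adjusted p = 0.0518). Vsig4 and Stab1 are also genes of tissue macrophages, and Fpr1, Fpr2 and Il1r2 of neutrophils. Red pulp macrophage markers summed to 173 to 509 CPM in intact and 1921 to 2552 CPM in resected blood. Peritoneal macrophage markers summed to 315 to 1015 CPM and 8651 to 12823 CPM. Mertk and Cd163 were at 42.8 to 71.7 CPM and 23.2 to 75.9 CPM in intact spleen, above every library of intact blood. What part these cells have in the rise of the list, Mertk and Cd163 included, was not tested.

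**Figure D4:**
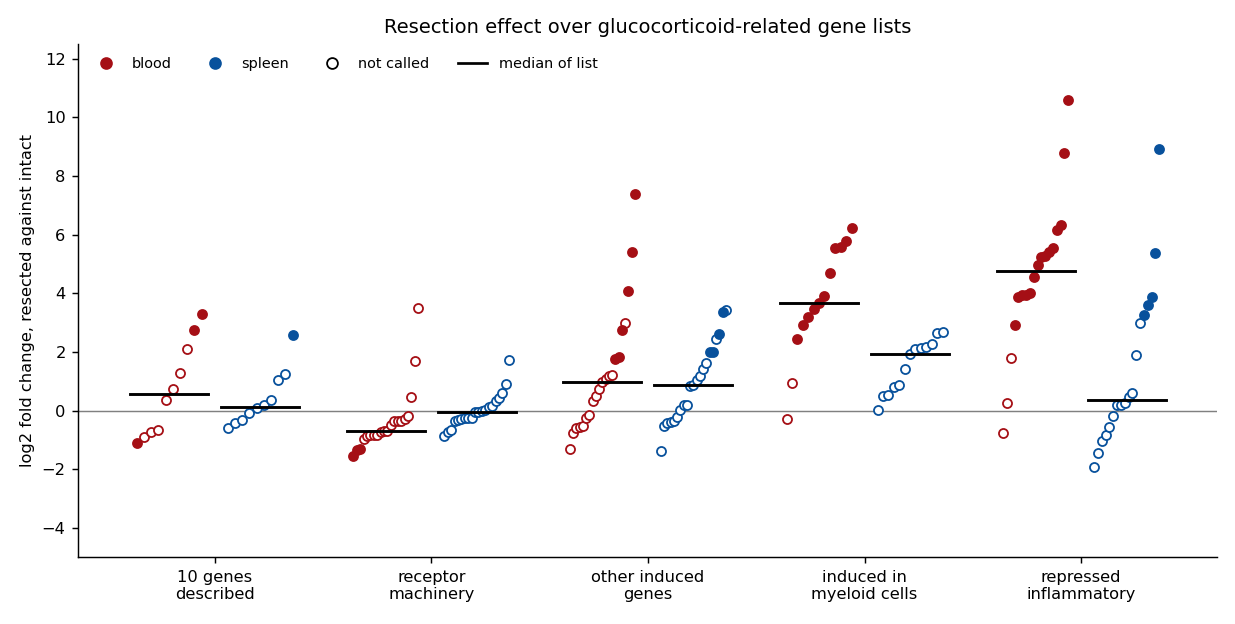
Fitted log2 fold change of resection in blood (red) and spleen (blue) for each gene of the lists named on the horizontal axis. Each point is a gene, filled where called, and bars are medians. Of the list repressed by glucocorticoids 15 of 18 genes were called higher in blood, Nos2 from at most 3 counts in intact blood, so that its fitted fold change is not a bound, and of the list induced in myeloid cells 11 of 13. Among all features 7.8% were called higher in blood.

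Of 18 inflammatory genes that glucocorticoids are known to repress, 15 were called higher and none lower in blood (median 4.75). In spleen 5 were called higher and none lower, and 6 of the 18 had a negative fold change (median 0.37). Over all features 7.8% were called higher in blood and 0.78% in spleen. The smallest p-values in blood were those of the neutrophil-attracting chemokine Cxcl1 (15.4 CPM in intact blood and 1244 CPM after resection on average, 6.34 ± 0.55), Il1a (8.80 ± 0.89) and Cxcl2 (5.29 ± 0.56). In spleen the 5 were Cxcl1 (5.36 ± 0.55), Cxcl2 (3.89 ± 0.53), Il1a (3.61 ± 0.71), Tnf (3.25 ± 0.64) and Nos2, which rose from 0.0426 to 0.105 CPM to 3.97 to 102.6 CPM. Ccl5, a chemokine of T cells and monocytes, had the smallest p-value of the negative changes in both tissues (-0.77 ± 0.56 in blood and -1.93 ± 0.57 in spleen) and was not called. Its splenic level was 28.5 to 45.96 CPM in intact mice and 5.39 to 15.1 CPM after resection, and it was called lower there by DESeq2 and in both tissues by edgeR without library 3 of intact blood. Without library 3 of both resected groups 15 were called higher in blood and 3 in spleen, and with 1 library left out the splenic count ran from 0 to 6, with 0 in the fits without library 1 or library 2 of intact spleen. Most genes of this list and several of the induced ones, such as Nfkbia, Zfp36 and Lcn2, are also known targets of NF-kB.

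Of 20 tested relatives of the 10 genes, 5 were called higher in blood (Anxa2, Anxa3, Anxa4, Anxa5 and Dusp16), and 2 lower (Dusp10 and Fkbp4). Of the former 3 were called without library 3 of both resected groups (Anxa3, Anxa4 and Anxa5). Over all features 7.8% were called higher and 6.11% lower in blood, and 0.78% higher in spleen. Anxa3, which neutrophils express, rose by 2.84 ± 0.39 in blood and by 2.20 ± 0.38 in spleen, and Dusp4 by 2.10 ± 0.45 in spleen, where these 2 were the only calls, with 0 calls without library 3 of both resected groups and 0 to 2 with 1 library left out. Sesn3 (-0.96 ± 0.31 in blood and -0.52 ± 0.31 in spleen) and Klf13 (-0.43 ± 0.27 in spleen) were not called. The changes of Anxa4 (1.24 ± 0.18) and Anxa5 (1.08 ± 0.21) were smaller than the 3.30 of Anxa1 itself, a difference between genes that was not tested. Dusp10, a phosphatase of the same class as Dusp1, fell from a mean of 473 to 83.3 CPM in blood (-2.51 ± 0.55), whereas Dusp1 did not differ detectably there.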

How the data were processed

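RNA-seq had been done on CD115-positive cells sorted with magnetic beads from spleen and blood, in 4 groups of 3 libraries with 5 mice each. Groups and library numbers were taken from the sample labels. For each library the authors deposited estimated counts in a table of its own (not whole numbers), scaled neither to library size nor to gene length. Per the submitters' processing notes STAR and GRCm39 were used, and the counting tool and annotation are not given in the sources used here. The splenic tissue was disaggregated mechanically and with collagenase before the gradient, and the blood was not.

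Each table had 67088 entries. Unassigned transcripts (1.75 to 4.33% of a library) were left out. Accessions were summed to symbols through the RefSeq table of GRCm38.p6 (25340 of 40274 matched), used for names and promoter windows only, which gave 52553 features, rounded to whole numbers. Reads shared between close relatives, as among the annexins or the metallothioneins, could be split by the counting in a way not stated, so single members are uncertain. Features kept by filterByExpr (20135) were fitted in edgeR 4.0.16 (R 4.3.3) with TMM factors and a robust quasi-likelihood model over all 12 libraries (8 residual degrees of freedom, common dispersion 0.312), without covariates. The standard error is the absolute log2 fold change over the square root of the F statistic, and p-values were adjusted by Benjamini-Hochberg over all features. The code was tested on simulated data. The limit of counting was set at 3 counts in a library and covers counting error only.

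Libraries of a group differed beyond sampling noise (chi-square over its degrees of freedom 21.0 to 635), and each counted as 1 replicate. DESeq2 1.42.0, RLE factors, other filters, unsummed entries, haemoglobin left out, fits of 2 groups, a replicate block and leaving out libraries were run as alternatives.

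The 10 genes and the gene lists were chosen with earlier results of these data known. All 10 are named in every comparison. Of each list the genes with the 3 smallest p-values in each direction in blood and in spleen are named, with those that make up a count of 5 or fewer. Outside this rule Lcn2, Zfp36, Cebpb, Fpr1, Fpr2, Il1r2, Il1rn, Msr1, Stab1, Thbs1, Ptgs2 and Nr3c2 were chosen after their values were seen.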

Additional observations from a re-analysis of the deposited data

Results flagged for a closer look

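None of the 10 genes had a resection effect that differed between the tissues by the test of the difference, or moved in opposite directions in every library. Among the genes of the lists 4 did. Mertk, for the uptake of dying cells, rose by 2.63 ± 0.37 (SE) more on the log2 scale in blood than in spleen (adjusted p = 0.0334 by edgeR), from 7.57 ± 1.95 to 82.7 ± 11.6 CPM (SD, n = 3) in blood and from 60.3 ± 15.3 to 106 ± 22.3 CPM in spleen. Ptgs2, which encodes the prostaglandin synthase COX-2, differed by 6.07 ± 1.02 (adjusted p = 0.047), with 5.81 ± 3.94 and 219.8 ± 159 CPM in intact and resected blood and 60.7 ± 17.6 and 34.1 ± 11.3 CPM in spleen.

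Il1b and Csf2, the genes of interleukin 1 beta and of GM-CSF, were higher in every resected than in every intact blood library and lower in every resected than in every intact splenic one. The difference of the effects was 4.98 ± 0.92 for Il1b (adjusted p = 0.0639) and 5.31 ± 1.28 for Csf2 (adjusted p = 0.117), and neither passed the threshold. Il1b was at 20.9 to 124 CPM in intact and 451 to 1480.03 CPM in resected blood, and at 475 to 707 CPM in intact and 162 to 407 CPM in resected spleen. Csf2 was close to the limit of counting in all groups but resected blood, with at most 3 counts in each library of resected spleen. Resected blood had 0.214 to 2.34 CPM, and its lowest library lay within the range of intact spleen (0.126 to 0.230 CPM).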

How the results depend on the processing

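The calls of Sgk1 and Anxa1 in blood and of Sgk1 in blood against spleen after resection were kept under every alternative run, which the calls of Tsc22d3, Dusp1 and splenic Anxa1 were not. Of the 10 genes 3 were called for resection in blood. With RLE factors, no low-count filter, entries as deposited or only the 2 groups compared the count was 2, with Tsc22d3 lost. The same held without library 3 of both resected groups. The count was 2 to 3 when 1 library was left out and 4 with DESeq2 (Klf9 gained). The shares of all features called under the alternatives are not given here. For resection in spleen the count of 1 became 2 with DESeq2 and 0 with no low-count filter, with entries as deposited, with the replicate block, with only the 2 groups compared and without library 3 of both resected groups, and it was 0 to 2 when 1 library was left out. For blood against spleen in intact mice the count of 1 became 0 with only the 2 groups compared, and 0 to 1 with 1 library left out. After resection the count of 3 became 5 with DESeq2 and with only the 2 groups compared, 4 with at least 10 counts in every library and with the replicate block, 2 with no low-count filter (Dusp1 lost) and 2 without library 3 of both resected groups (Tsc22d3 and Dusp1 lost, Zbtb16 gained), and 1 to 5 with 1 library left out. For the difference of the effects the count of 0 became 1 with DESeq2 (Sgk1) and was 0 to 0 with 1 library left out. The library numbers were not taken as pairs, since nothing states that they mark shared mice. Deviations of same-numbered libraries from their group means correlated at -0.046 to 0.189. For blood against spleen after resection they gave 0.042, 0.131 and 0.189, and libraries of unlike number -0.186 to 0.073. Whether these groups shared mice or a batch was not tested. With the replicate block splenic Anxa1 was no longer called (2.44, adjusted p = 0.0821) and Sesn1 was called in blood against spleen after resection (-1.39, adjusted p = 0.0428), and no other call of the 10 genes changed. Leaving out library 3 of both resected groups was chosen after seeing the data. The causes of these changes were not tested.

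Fold changes near 0 turned sign. For blood against spleen in intact mice Anxa1 was 0.07 with DESeq2, RLE factors, entries as deposited and without both libraries 3, 0.06 with no low-count filter, 0.10 without haemoglobin and 0.02 with the replicate block. Without both libraries 3 Dusp1 was 0.13 and Zbtb16 -2.18 for resection in spleen, Nr3c1 -0.16 for blood against spleen after resection and Sesn1 0.11 for the difference. With the replicate block Zbtb16 was -0.34 for resection in spleen and Nr3c1 -0.01 for blood against spleen after resection. With 1 library left out the range crossed 0 for resection in blood for Dusp1 (-0.01 to 0.61) and Ddit4 (-1.19 to 0.18), and for resection in spleen for Fkbp5 (-1.99 to 0.16), Tsc22d3 (-0.14 to 0.25), Dusp1 (-0.37 to 0.13), Zbtb16 (-2.17 to 0.70) and Ddit4 (-0.02 to 0.70). For blood against spleen in intact mice it did so for Nr3c1 (-0.08 to 0.33), Sgk1 (-0.08 to 0.40) and Anxa1 (-0.14 to 0.37), after resection for Nr3c1 (-0.12 to 0.26) and Fkbp5 (-0.25 to 1.85), and for the difference for Nr3c1 (-0.32 to 0.21), Klf9 (-0.34 to 0.56) and Sesn1 (-0.64 to 0.14). The scarcest of these genes, Zbtb16, had 46 to 763 counts in a library, so the intervals rest more on the spread between libraries than on counting. That spread was estimated in 1 fit of all 12 libraries.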

Other observations

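Other regulators of some of the 10 genes were counted in fixed lists. Klf9, Per1 and Tsc22d3 follow the circadian clock as well as the hormone, and of 14 core clock genes and outputs 4 passed the threshold upwards in resected blood (Nr1d1, Per2, Bhlhe40 and Nr1d2) and 2 in spleen (Nr1d1 and Nr1d2), with none lower. Among all features 7.8% passed it upwards in blood and 0.78% in spleen. Nr1d1, the nuclear receptor REV-ERB alpha, was at 11.6 to 22.8 CPM in intact and 91.0 to 148 CPM in resected blood (2.73 ± 0.39, adjusted p = 0.00217 by edgeR) and at 3.32 to 8.92 CPM and 37.7 to 56.0 CPM in spleen (2.94 ± 0.40, adjusted p = 0.0183). Arntl and Per3 had the smallest p-values of the negative changes in spleen (-0.34 and -0.10), and Npas2, Dbp and Per3 in blood (-1.12, -0.86 and -0.51), none of them called. The hour at which intact mice were sampled is not given in the sources used here, so time of day and resection cannot be told apart. Without library 3 of both resected groups 3 clock genes were called in blood and 0 in spleen.

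Among all features 7.8% were called higher in blood and 0.78% in spleen. Of 9 p53 targets tested beside Sesn1, Mdm2 (1.86 ± 0.25) and Cdkn1a (1.74 ± 0.53) were called higher in blood and Bbc3 (1.97 ± 0.33) in spleen, and none lower, while Sesn1 was -0.65 and -0.43. Bax (0.53 ± 0.14 in blood), Zmat3 (-0.60 ± 0.18 in both tissues), Ccng1 (-0.33 and -0.35), Trp53inp1 (-0.77 in blood) and Aen (-0.19 in spleen) were not called. Of 12 targets of HIF and ATF4 beside Ddit4, Slc2a1 (1.48 ± 0.39) and Bnip3 (2.43 ± 0.68) were called higher in blood, and Atf4 (1.02 ± 0.22) and Adm (2.39 ± 0.51) in spleen, and none lower. The list's median was 1.61 in spleen and 0.67 in blood, against 0.38 and -0.88 for Ddit4. Asns (1.99), Egln3 (-1.27) and Pdk1 (-0.08) in blood and Ddit3 (1.71) and Ankrd37 (-0.62) in spleen were not called. Without library 3 of both resected groups the splenic calls of both lists numbered 0, and in blood the HIF and ATF4 list had 1 call and the p53 list 2. With 1 library left out the blood calls ran from 0 to 3 and from 1 to 2, with 0 for HIF and ATF4 without library 2 or library 3 of resected blood.

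In each of the 4 groups library 3 stood apart for most of the 10 genes. It was the farthest from the group's median for 10 of them in intact blood, 7 in intact spleen, 6 in resected spleen and 7 in resected blood, where over 14934 features of at least 1 CPM the share was 73.3%, 51.8%, 39.7% and 53.8%. Libraries 1 and 2 were also the pair with the smallest chi-square per degree of freedom in every group (65.5, 21.0, 144 and 68.6 in the same order, against 70.1 to 635 for the other pairs). For Fkbp5 the highest library of a group exceeded the lowest by 1.73 to 10.9 times, and library 3 was always one of them. No label tells what the number of a library stands for.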
